A study of Mus musculus with 24 samples.

Results

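The 8 genes described here encode proteins linked to the cytotoxic granule. They are the granzymes *Gzmb*, *Gzmc* and *Gzmk*, the pore-forming protein *Prf1*, the granule membrane protein *Nkg7* and the protease *Ctsw*. The set also holds the cytosolic granzyme inhibitor *Serpinb9* and the proteoglycan *Srgn*. The genes were taken by symbol, and all 8 were found among the 23420 genes of the count files. RNA was sequenced from sorted mouse CD4 T cells in 24 libraries, 6 for each of 4 states. Every mouse carried the genotype OT2Nur77GFP+/-, which joins the OT-II T-cell receptor transgene, specific for an ovalbumin peptide, to a GFP reporter driven by *Nr4a1* (Nur77), a gene induced by T-cell receptor signalling. Reactivated TH1 cells were effectors that then spent 6 hours with macrophages loaded with antigen. TH1 effector cells had been differentiated in culture for 5 days. Activated naive cells were naive cells stimulated for 6 hours, with a stimulus that the labels do not name. Naive cells came directly from spleens and are the unstimulated starting point. The labels give neither the sort gate nor the age or sex of the mice, and no group had macrophages without antigen. Libraries were numbered M1 to M6 in every group, and the labels do not say what a number stands for, so p-values measure only the spread between these libraries, which may be technical. Libraries of 1 group differed beyond counting noise, with a chi-square of at least 8.90 per degree of freedom.

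Killer lymphocytes store granzymes in acidic secretory granules, bound to serglycin, the proteoglycan encoded by *Srgn*. On contact with a target the granules fuse with the plasma membrane, perforin opens pores, and granzymes enter the target and cleave proteins that trigger its death. *Serpinb9* encodes a cytosolic serpin that inhibits granzyme B and shields the killer cell from its own enzyme. The system is best known from CD8 T cells and NK cells, and CD4 T cells can also acquire parts of it.

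Libraries held 18457653 to 34262645 counts assigned to genes, with means of 29181829 in reactivated TH1, 27106546 in TH1 effector, 27302327 in activated naive and 22938456 in naive cells. Levels are normalised counts per 1e6 assigned counts (CPM), and fold changes with their adjusted p-values come from edgeR's quasi-likelihood test with Benjamini-Hochberg adjustment over 12584 genes, with a threshold of 0.05. An SE beside a log2 value is for how far apart 2 group means lie, taken from the variation among libraries of 1 group and 1 sequencing run. It was computed on log2(CPM + 2 counts at mean depth), another scale than the edgeR fold change. The added counts draw values near 0 together, so the SE understates the error of a gene with few counts. Of the 8 genes, 7 passed the filter on low counts and *Gzmk* did not. *Gzmc* passed it through the TH1 groups, in which it was high, and *Gzmb* and *Nkg7* were also far higher there. The numbers of genes called below therefore describe the set and support nothing further.

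The starts of 7 of the 8 genes were matched in RefSeq (build GRCm38.p6), and *Ctsw* had no entry in that table. The windows of *Gzmb*, *Gzmc*, *Prf1* and *Nkg7* are shown because these genes, which encode granzymes, the pore and the membrane protein, were all higher in reactivated TH1 than in TH1 effector cells. Each runs 5′ to 3′ on the gene's strand, from 250 bases before the start to 50 after it, at chr14:56262285-56262584 (minus strand), chr14:56234608-56234907 (minus), chr10:61297586-61297885 (plus) and chr7:43436888-43437187 (plus). Capitals mark the letters of short motifs named for transcription factors of T cells, searched on both strands: AP-1 (TGANTCA), CRE (TGACGT), RUNX (TGTGGT), T-box (AGGTGT) and NFAT (TGGAAA).
Gzmb: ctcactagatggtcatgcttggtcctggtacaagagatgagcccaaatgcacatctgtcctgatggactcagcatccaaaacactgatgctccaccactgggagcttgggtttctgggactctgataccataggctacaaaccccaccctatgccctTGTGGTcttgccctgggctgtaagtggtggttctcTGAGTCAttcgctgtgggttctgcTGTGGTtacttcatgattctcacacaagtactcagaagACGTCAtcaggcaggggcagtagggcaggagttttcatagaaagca
Gzmc: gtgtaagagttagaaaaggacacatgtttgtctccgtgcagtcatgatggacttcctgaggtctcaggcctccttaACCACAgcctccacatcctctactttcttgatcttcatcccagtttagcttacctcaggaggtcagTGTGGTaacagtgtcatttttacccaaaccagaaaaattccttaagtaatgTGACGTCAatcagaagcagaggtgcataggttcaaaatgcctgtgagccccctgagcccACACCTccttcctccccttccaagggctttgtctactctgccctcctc
Prf1: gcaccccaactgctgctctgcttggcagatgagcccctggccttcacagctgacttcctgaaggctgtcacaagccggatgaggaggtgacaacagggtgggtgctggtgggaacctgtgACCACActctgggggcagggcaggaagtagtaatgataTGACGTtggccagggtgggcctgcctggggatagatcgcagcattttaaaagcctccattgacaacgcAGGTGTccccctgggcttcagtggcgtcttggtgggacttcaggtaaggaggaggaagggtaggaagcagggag
Nkg7: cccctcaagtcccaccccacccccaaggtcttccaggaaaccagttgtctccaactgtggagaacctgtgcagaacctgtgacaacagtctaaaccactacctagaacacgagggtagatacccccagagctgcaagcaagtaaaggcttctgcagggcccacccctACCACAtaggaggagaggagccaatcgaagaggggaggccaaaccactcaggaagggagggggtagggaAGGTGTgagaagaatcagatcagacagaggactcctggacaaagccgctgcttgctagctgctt

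A RUNX match lay in 6 of the 7 genes, against 16.8% of 32851 RefSeq promoters of the same length. Matches are counted by gene but the shares by single promoter, so *Srgn*, with 2 windows, could match in either. T-box letters lay in 4 genes, *Gzmc*, *Gzmk*, *Nkg7* and *Prf1*, against 13.7% of promoters. CRE letters lay in *Gzmb*, *Gzmc*, *Prf1* and *Srgn*, against 7.51% of promoters, and in *Gzmc* the match reads on both strands as overlapping copies. *Gzmb* alone held the AP-1 letters, 58 bases before its RefSeq start, and 7.81% of promoters hold them. That start lies 74 bases upstream of the gene's 5′ end in GENCODE M21, whose coordinates are given with each gene below. Counted the same way, the RefSeq start was at -44943 for *Gzmk*, -19694 for the second start of *Srgn* and -1291 for *Serpinb9*. These starts lie inside the GENCODE genes, so their windows do not cover the GENCODE 5′ ends. For *Gzmb*, *Prf1* and *Gzmk* a stretch of 20 bases shortly after the RefSeq start was not found as 1 run in an M21 transcript. A stretch that crosses the end of an exon would also be missed, and the RefSeq start of *Prf1* lies close to its GENCODE 5′ end. *Serpinb9* and *Srgn* held NFAT letters, against 21.4% of promoters. *Gzmk*, whose window held T-box letters at 2 places, was the gene close to absent from the libraries, and *Srgn* has 2 listed starts, of which only the second held any match. These are letter matches, with no measurement of binding here.

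**Figure D1:**
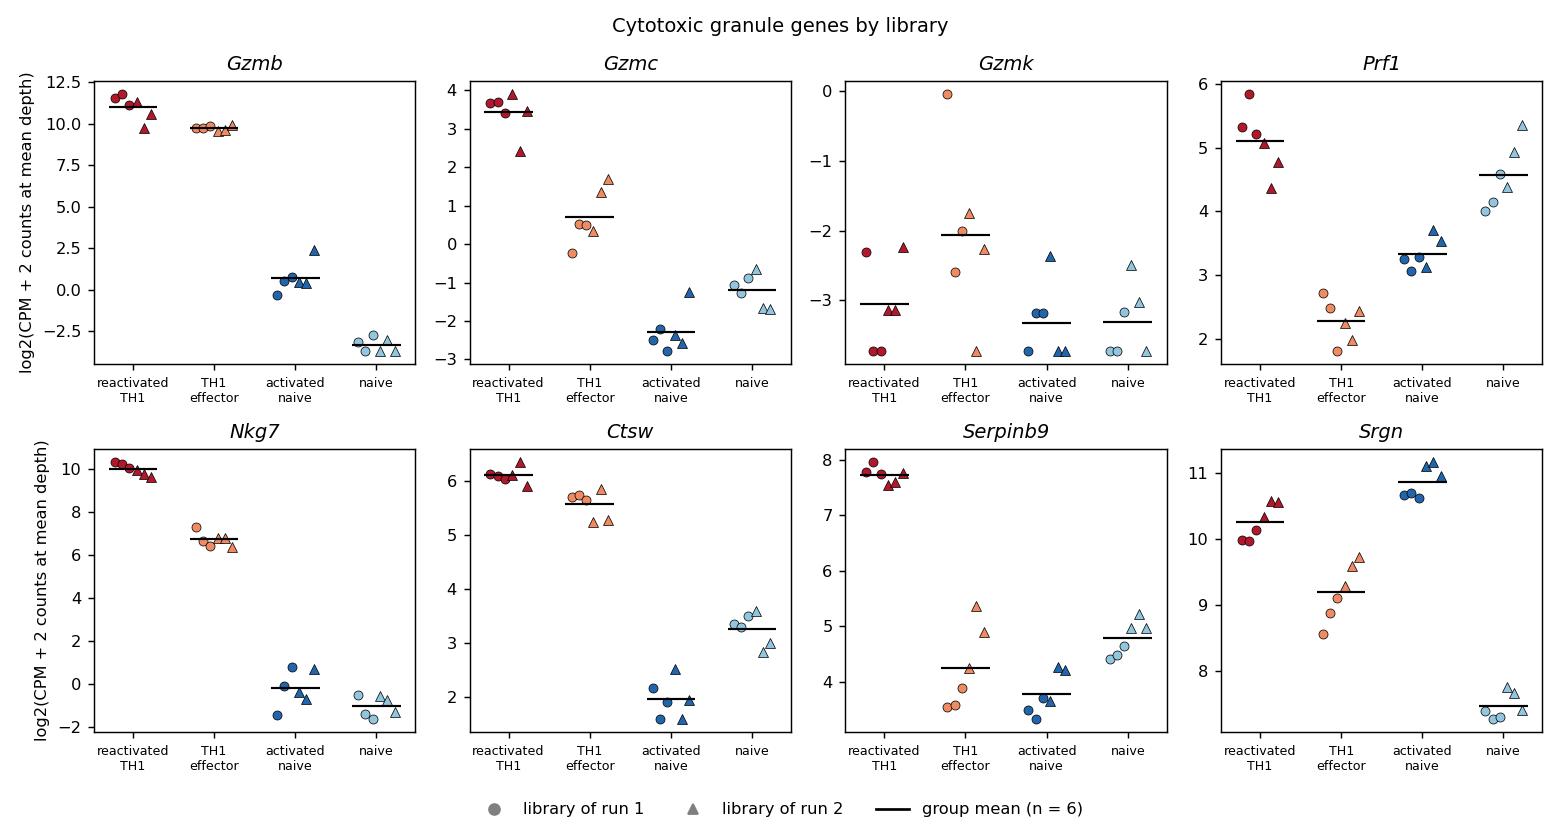
Level of each gene in every library on a log2 scale, log2(CPM + 2 counts at mean depth), with a circle or triangle per library for the sequencing run and a line for the group mean (n = 6). Reactivated TH1 libraries lie above TH1 effector libraries without overlap for *Gzmc*, *Prf1*, *Nkg7*, *Ctsw*, *Serpinb9* and *Srgn*, and overlap them for *Gzmb*.

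Granzyme B, the serine protease that cleaves caspases and other death substrates, had the largest fold difference between TH1 effector and naive cells of the 7 genes tested. *Gzmb* (chr14:56258838-56262260) had a lowest, median and highest level of 869.6, 2402 and 3570.0 CPM in reactivated TH1 libraries and of 763, 862 and 968 CPM in TH1 effector libraries. It reached 0.705, 1.34 and 5.24 CPM in activated naive libraries and 0, 0.0184 and 0.0712 CPM in naive libraries, where the 6 libraries held 4 counts in all. Both TH1 groups lay far above the other states, and 1 activated naive library, number 6, stood above the rest of its group at 5.24 CPM, against 1.59 CPM in the next. No activated naive library overlapped the naive or the TH1 effector ones, but the reactivated TH1 and TH1 effector ranges overlapped.

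*Gzmb* was 2.62-fold higher in reactivated TH1 than in TH1 effector cells (log2 1.39, SE 0.25, adjusted p = 0.000207). The reactivated libraries were spread widely, with means of 2973 CPM in sequencing run 1 and 1644 CPM in run 2, and within run 2 alone the log2 difference was 0.98 with an adjusted p of 0.0849. *Gzmb* was 58.0-fold higher in activated naive than in naive cells (log2 5.86, SE 0.41, adjusted p = 1.04e-05), and 38.6-fold without activated naive library 6. In TH1 effector against naive cells the log2 difference was 14.74 (SE 0.19, adjusted p = 3.97e-15), a size that rests on the 4 naive counts. With so few counts, the SEs of both differences from naive cells are too small. In TH1 effector against activated naive cells it was 471-fold higher, and 726-fold without activated naive library 6. Naive cells stimulated for 6 hours thus held far less *Gzmb* RNA than the 5-day effectors.

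*Gzmc*, a second granzyme gene of the same cluster, 24.2 kb from *Gzmb*, encodes a protease of less well defined substrates. It had 5.30, 11.9 and 15.0 CPM (lowest, median, highest) in reactivated TH1 and 0.784, 1.35 and 3.18 CPM in TH1 effector libraries. In activated naive libraries it had 0.0690, 0.110 and 0.343 CPM, and in naive libraries 0.235, 0.374 and 0.562 CPM. Reactivated libraries lay above all others, and activated naive and naive libraries overlapped through activated naive library 6. The gene was 6.83-fold higher in reactivated TH1 than in TH1 effector cells (log2 2.77, SE 0.33, adjusted p = 8.40e-10). It was 4.33-fold higher in TH1 effector than in naive cells (log2 2.12, SE 0.30, adjusted p = 4.99e-06) and 2.70-fold lower in activated naive than in naive cells (log2 -1.43, SE 0.28, adjusted p = 0.0140). Within run 2 alone that fall was -0.88 on the log2 scale, with an adjusted p of 0.352. Of the 50-base stretches of *Gzmc* transcripts, 4.14% also occur in *Gzmd*, *Gzme* or *Gzmg*, so a small part of its reads could have been shared with those genes, which had at most 0.132 CPM on average in any group.

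*Gzmk* (chr13:113171608-113225908), a granzyme gene known from a subset of memory T cells, was near the limit of detection in every group. It had 9 counts over the 6 reactivated TH1 libraries, 48 over the TH1 effector libraries, 5 over the activated naive and 4 over the naive libraries. Of the 48 effector counts, 31 came from library 1, which reached 0.90 CPM, against 0.222 CPM in the next. Pooled levels were 0.0539 CPM in reactivated TH1 (exact 95% Poisson interval 0.0247 to 0.102), 0.284 CPM in TH1 effector (0.209 to 0.376), 0.0323 CPM in activated naive (0.0105 to 0.0755) and 0.0274 CPM in naive cells (0.00746 to 0.0701). These intervals cover counting error only. With no filter on low counts, *Gzmk* was 2.16 lower on the log2 scale in reactivated TH1 than in TH1 effector cells (adjusted p = 0.0193, edgeR), a difference that rests on library 1. Without that library it was -1.12 (adjusted p = 0.220, edgeR), so no change at reactivation was shown for *Gzmk*.

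*Prf1* (chr10:61297833-61304680) encodes perforin, the pore through which granzymes reach the target. It had 20.5, 35.2 and 57.3 CPM (lowest, median, highest) in reactivated TH1 and 3.40, 5.0 and 6.50 CPM in TH1 effector libraries. It had 8.29, 9.58 and 13.0 CPM in activated naive and 16.0, 22.4 and 41.0 CPM in naive libraries. The lowest group was the effectors, and reactivated TH1 and naive libraries overlapped in most of their range, so the order of the states was not that of *Gzmb*. *Prf1* was 7.34-fold higher in reactivated TH1 than in TH1 effector cells (log2 2.88, SE 0.21, adjusted p = 5.93e-10). It was 5.07-fold lower in TH1 effector than in naive cells (log2 -2.34, SE 0.23, adjusted p = 1.32e-08) and 2.47-fold lower in activated naive than in naive cells (log2 -1.31, SE 0.19, adjusted p = 3.14e-05). TH1 effector cells were also 2.05-fold below activated naive cells (log2 -1.04, adjusted p = 0.000683). The difference between reactivated TH1 and naive cells, 1.45-fold (log2 0.53, adjusted p = 0.0371), was lost in 14 of 36 alternative settings and turned round within run 2 alone (log2 -0.17, adjusted p = 0.526).

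*Nkg7* (chr7:43437073-43438249) encodes a membrane protein of cytotoxic granules needed for full granule release in mouse T and NK cells. Its level was 781, 1013 and 1275 CPM (lowest, median, highest) in reactivated TH1 and 82.3, 104 and 157.2 CPM in TH1 effector libraries. It was 0.302, 0.795 and 1.66 CPM in activated naive and 0.249, 0.429 and 0.627 CPM in naive libraries. The 2 TH1 groups were each separated from every other group, whereas activated naive and naive libraries overlapped. *Nkg7* was 9.45-fold higher in reactivated TH1 than in TH1 effector cells (log2 3.24, SE 0.16, adjusted p = 3.02e-13) and 249-fold higher in TH1 effector than in naive cells (log2 7.96, SE 0.25, adjusted p = 3.27e-17). In activated naive against naive cells it passed the threshold narrowly, at 2.15-fold higher (log2 1.11, SE 0.43, adjusted p = 0.0180). That last call was lost without activated naive library 3 (adjusted p = 0.0700) or library 6 (adjusted p = 0.0501), and within each run alone (adjusted p = 0.139 in run 1 and 0.0628 in run 2). It was also lost without libraries 5 and 6 of every group (log2 0.999, adjusted p = 0.127).

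*Ctsw* (chr19:5465043-5468507) encodes cathepsin W, a cysteine protease found mainly in cytotoxic T and NK cells. It had 59.3, 68.1 and 81.3 CPM (lowest, median, highest) in reactivated TH1 and 37.4, 51.0 and 57.2 CPM in TH1 effector libraries. It had 2.95, 3.73 and 5.69 CPM in activated naive and 7.11, 9.96 and 11.9 CPM in naive libraries. None of the 4 ranges overlapped, and the order ran from reactivated TH1 through TH1 effector and naive down to activated naive cells. The step at reactivation was the smallest of the 7 tested, 1.43-fold (log2 0.51, SE 0.12, adjusted p = 0.00106), while the gene was 4.96-fold higher in TH1 effector than in naive cells (log2 2.31, SE 0.15, adjusted p = 1.15e-13). It fell by 1.30 on the log2 scale in activated naive against naive cells (SE 0.20, adjusted p = 2.89e-08). The exons of *Ctsw* share 9 bases with *Fibp* on the opposite strand.

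*Srgn* (chr10:62493833-62527451), whose proteoglycan packs granzymes and also other secreted proteins in many blood cells, was abundant in all states and had another order. It had 1008, 1211 and 1532 CPM (lowest, median, highest) in reactivated TH1 and 379.8, 589 and 847 CPM in TH1 effector libraries. It had 1579.7, 1820.5 and 2303 CPM in activated naive and 155, 169.9 and 218 CPM in naive libraries. None of these ranges overlapped, and activated naive cells were highest. *Srgn* was 10.5-fold higher in activated naive than in naive cells (log2 3.39, SE 0.07, adjusted p = 4.79e-21) and 2.08-fold higher in reactivated TH1 than in TH1 effector cells (log2 1.06, SE 0.11, adjusted p = 5.17e-11). In reactivated TH1 against activated naive cells it was 1.52-fold lower (log2 -0.60, SE 0.06, adjusted p = 9.71e-07), the only 1 of the 7 tested genes lower in that comparison.

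*Serpinb9* (chr13:33003250-33017957), the inhibitor of granzyme B, stood apart in reactivated TH1 cells. It had 187, 215 and 249 CPM (lowest, median, highest) in reactivated TH1 and 11.6, 16.9 and 41.0 CPM in TH1 effector libraries. It had 9.97, 12.7 and 19.1 CPM in activated naive and 21.1, 28.0 and 37.3 CPM in naive libraries. No reactivated library overlapped any other group, while effector libraries overlapped both the activated naive and the naive ones. *Serpinb9* was 10.9-fold higher in reactivated TH1 than in TH1 effector cells (log2 3.44, SE 0.18, adjusted p = 3.02e-12) and 2.003-fold lower in activated naive than in naive cells (log2 -1.002, SE 0.12, adjusted p = 0.000167). The effector libraries averaged 12.8 CPM in run 1 and 30.0 CPM in run 2. The effector level was 1.37-fold below naive (log2 -0.45, SE 0.18, adjusted p = 0.0486), a call lost in 19 of 36 alternative settings, among them run 2 alone (log2 -0.16, adjusted p = 0.565).

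**Figure D2:**
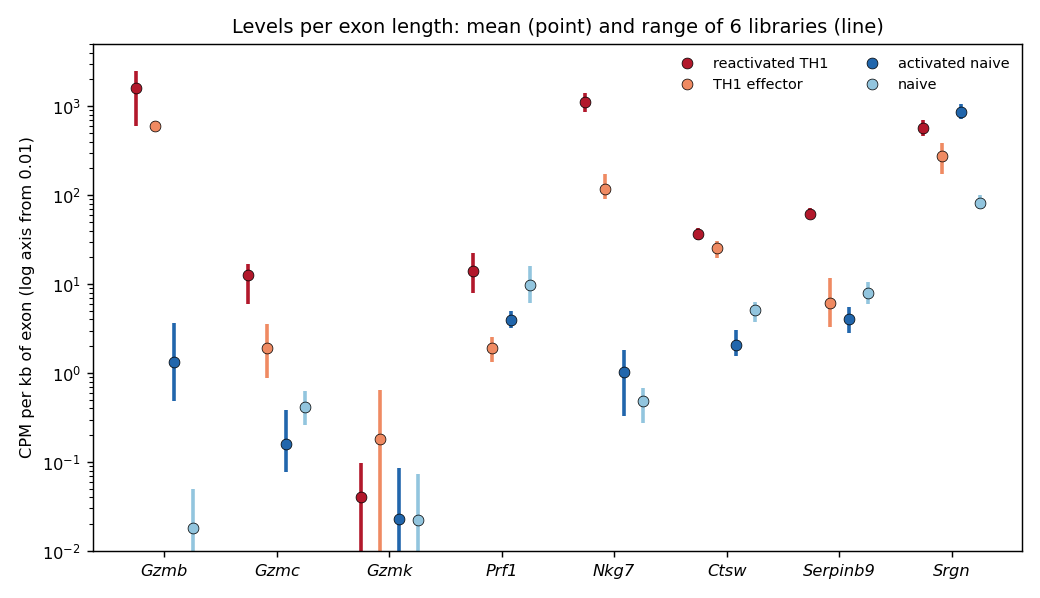
Level per kilobase of exon, on a log axis, with a point for the mean and a line for the range of 6 libraries in each group. Reactivated TH1 cells average 1608 CPM per kb for *Gzmb* and 1118 for *Nkg7*, and naive cells average 0.0181 and 0.484.

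Levels can be set against each other between genes only per exon length, here as mean CPM per kilobase of GENCODE M21 exons. In reactivated TH1 cells the order was *Gzmb* at 1608, *Nkg7* at 1118, *Srgn* at 569, *Serpinb9* at 61.0, *Ctsw* at 36.3, *Prf1* at 13.9, *Gzmc* at 12.6 and *Gzmk* at 0.0407 CPM per kb. In TH1 effector cells it was *Gzmb* at 602, *Srgn* at 277, *Nkg7* at 118, *Ctsw* at 25.5, *Serpinb9* at 6.12, *Gzmc* at 1.92, *Prf1* at 1.89 and *Gzmk* at 0.182. Per length, RNA for granzyme B thus stood well above that for perforin in both TH1 states. In activated naive cells *Srgn* led at 861 CPM per kb, followed by *Serpinb9* at 4.01 and *Prf1* at 3.90. In naive cells *Srgn* led at 81.7, followed by *Prf1* at 9.66 and *Serpinb9* at 8.03, while *Gzmk* at 0.0223 and *Gzmb* at 0.0181 each rested on 4 counts. The 8 genes took a lowest, median and highest share of all assigned counts of 0.352%, 0.472% and 0.572% in reactivated TH1, 0.154%, 0.165% and 0.204% in TH1 effector, 0.153%, 0.178% and 0.223% in activated naive and 0.0218%, 0.0252% and 0.0301% in naive libraries. Fewer cells of a kind and less RNA per cell cannot be told apart in such bulk samples.

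As a set, the 7 tested genes were all higher in reactivated TH1 than in TH1 effector cells, where 39.9% of all genes tested were higher. Their median log2 change was 2.77, against -0.00227 over all genes, and 6 of the 7 changed by at least 2-fold, as did 13.3% of all genes upwards. In activated naive against naive cells 3 were higher and 4 lower, where 41.3% and 40.5% of all genes were called. *Gzmb*, *Nkg7* and *Srgn* were the higher ones and *Gzmc*, *Prf1*, *Ctsw* and *Serpinb9* the lower ones, with a median of -1.002 on the log2 scale. In TH1 effector against naive cells 5 were higher and 2 lower (44.6% and 40.3% of all genes), *Prf1* being lower and *Serpinb9* lower only narrowly past the threshold. Since most genes were called in every comparison, being called says little about a gene, and the sizes carry the description.

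The remaining comparisons follow from the same libraries. In reactivated TH1 against activated naive cells 6 of the 7 genes were higher and 1 lower (43.4% and 36.4% of all genes). There *Gzmb* was 1236-fold, *Nkg7* 1090-fold, *Gzmc* 80.1-fold, *Ctsw* 17.4-fold, *Serpinb9* 15.9-fold and *Prf1* 3.58-fold higher. The value for *Gzmb* becomes 1871-fold without activated naive library 6. In TH1 effector against activated naive cells 5 were higher and 2 lower (45.6% and 41.2% of all genes), with *Nkg7* 115-fold, *Ctsw* 12.2-fold and *Gzmc* 11.7-fold higher and *Srgn* 3.15-fold lower. *Serpinb9* was 1.47-fold higher there (adjusted p = 0.0199), which was lost without TH1 effector library 5 (adjusted p = 0.0899) or activated naive library 4 (adjusted p = 0.0538), and without libraries 5 and 6 of every group (adjusted p = 0.0946). In reactivated TH1 against naive cells all 7 were higher (47.9% of all genes), among them *Nkg7* by 2348-fold, *Gzmc* by 29.6-fold, *Serpinb9* by 7.95-fold, *Ctsw* by 7.08-fold and *Srgn* by 6.90-fold, with *Prf1* the one whose direction depended on the run.

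**Figure D3:**
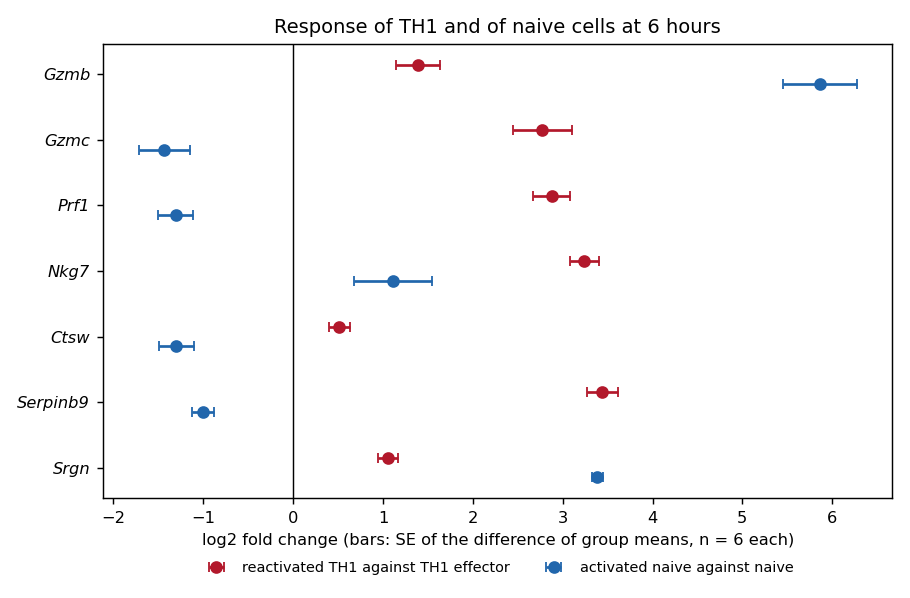
Log2 fold change of the 7 tested genes after 6 hours, in reactivated TH1 against TH1 effector cells (upper points) and in activated naive against naive cells (lower points), with bars for the SE of the difference of group means (n = 6 each). *Gzmc*, *Prf1*, *Ctsw* and *Serpinb9* lie on opposite sides of 0 in the 2 responses. The bar of *Gzmb* in the naive response is too short, because its naive counts are near 0.

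Whether TH1 and naive cells responded alike at 6 hours was tested as the difference between both responses, (reactivated TH1 minus TH1 effector) minus (activated naive minus naive). It passed the threshold in the positive direction for 5 genes and in the negative one for 2, as for 34.3% and 33.7% of all genes tested. *Serpinb9* (4.44, SE 0.22, adjusted p = 2.02e-11), *Gzmc* (4.21, SE 0.43, adjusted p = 5.93e-07), *Prf1* (4.18, SE 0.28, adjusted p = 4.38e-10) and *Ctsw* (1.81, SE 0.23, adjusted p = 2.47e-08) rose in TH1 cells and fell in naive cells. *Nkg7* rose more in TH1 cells, with a difference of 2.13 (SE 0.46, adjusted p = 0.000645). *Srgn* (-2.33, SE 0.13, adjusted p = 2.33e-14) and *Gzmb* (-4.47, SE 0.48, adjusted p = 0.00202) rose by a larger factor in naive cells. For *Gzmb* that factor starts from 4 naive counts, and its SE understates the error. The stimuli of the 2 responses may differ, as may the time since the cells left the animal, and neither can be told apart from the cell state here.

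**Figure D4:**
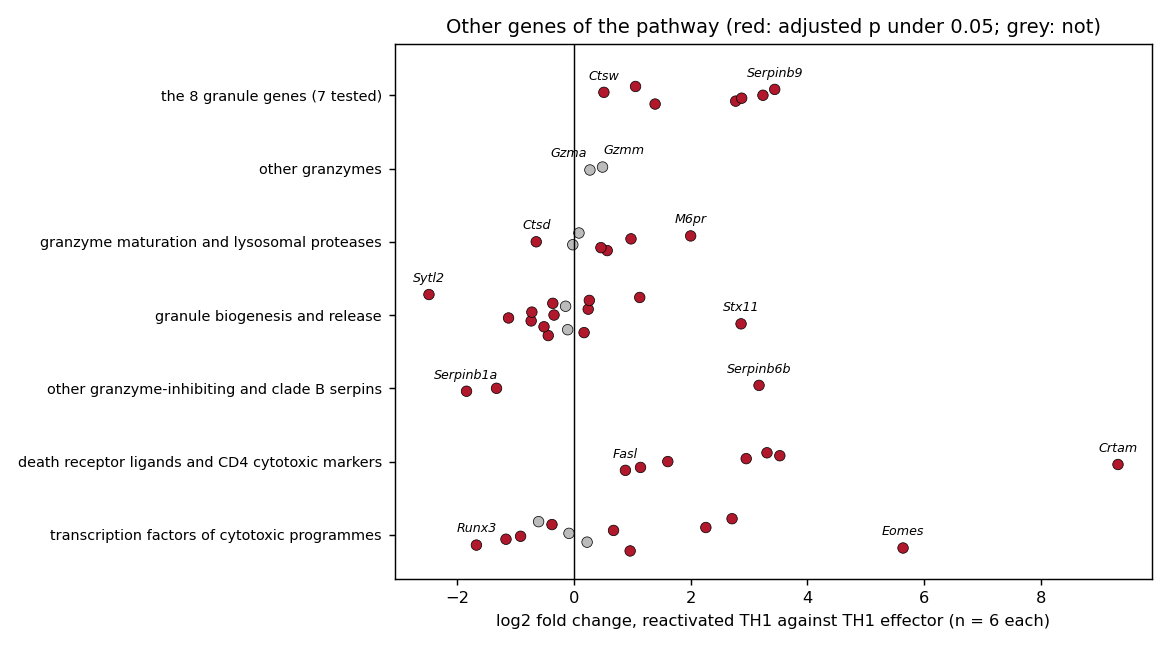
Log2 fold change in reactivated TH1 against TH1 effector cells for the 8 granule genes (7 tested) and for 6 lists of related genes, 1 point per gene, red where the adjusted p was under 0.05, with the highest and lowest of each list named. All 7 death ligand and marker genes lie right of 0, and genes of granule biogenesis and release lie on both sides.

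Other genes of the granule pathway are given by list, beside the share of all 12584 genes tested that were called: 39.9% higher and 39.8% lower in reactivated TH1 against TH1 effector cells. Of 7 other granzyme genes only *Gzma* and *Gzmm* had enough counts, and neither passed the test (edgeR) in reactivated TH1 against TH1 effector cells (log2 0.27, adjusted p = 0.445 for *Gzma*, and log2 0.49, adjusted p = 0.0737 for *Gzmm*). *Gzma* was 39.6-fold lower in activated naive than in naive cells, and both genes are named here because they were the only ones tested, a choice made after their values were seen. Of 7 tested genes for granzyme maturation and lysosomal proteases, 4 rose and 1 fell at reactivation, where 39.9% of all genes rose and 39.8% fell. *M6pr*, the mannose 6-phosphate receptor that carries granzymes to granules, averaged 763 CPM in reactivated TH1 and 191 CPM in TH1 effector cells (4.002-fold higher). It also averaged 928 CPM in activated naive and 193 CPM in naive cells (4.82-fold higher). *Cst7*, an inhibitor of granule cathepsins, averaged 215 CPM in reactivated TH1 and 109 CPM in TH1 effector cells (1.97-fold higher), and the lysosomal protease gene *Ctsd* was 1.56-fold lower. In activated naive against naive cells *Cst7* was 2.63-fold higher and *Ctsd* 5.67-fold lower.

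Of 15 genes for granule biogenesis and release, 5 rose and 8 fell at reactivation, where 39.9% of all genes rose and 39.8% fell. In TH1 effector against naive cells 11 rose and 3 fell, where 44.6% of all genes rose and 40.3% fell. *Stx11*, a syntaxin needed for granule fusion, averaged 248 CPM in reactivated TH1 and 34.1 CPM in TH1 effector cells (7.28-fold higher). It rose by a larger factor in naive cells, averaging 41.7 CPM in activated naive and 1.58 CPM in naive cells (26.6-fold higher). *Sytl2*, which tethers Rab27a-bearing granules to the plasma membrane, averaged 5.07 CPM in reactivated TH1 and 28.5 CPM in TH1 effector cells (5.60-fold lower). It was 2.27-fold higher in activated naive than in naive cells. Among 3 tested clade B serpins, *Serpinb6b* was 9.02-fold higher at reactivation (281 CPM in reactivated TH1 and 32.4 CPM in TH1 effector cells) and *Serpinb6a* 2.51-fold lower. All 3 were higher in TH1 effector than in naive cells, as were 44.6% of all genes, and all 3 were lower in activated naive than in naive cells, as were 40.5% of all genes.

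All 7 tested genes of the list of death receptor ligands and CD4 cytotoxic markers rose at reactivation, as did 39.9% of all genes, with a median log2 change of 2.95. Of the same 7, 5 also rose in activated naive against naive cells, as did 41.3% of all genes, among them *Slamf7* at 166.5 CPM in activated naive and 0.339 CPM in naive cells (487-fold higher). The median difference between the TH1 and naive responses over the 7 was -0.06 on the log2 scale. *Cx3cr1*, which averaged 0.250 CPM in reactivated TH1 and 0.0266 CPM in TH1 effector cells, is counted among the 7 despite its low level. *Crtam*, a surface receptor that marks CD4 cells with cytotoxic potential in mice, averaged 485 CPM in reactivated TH1 and 0.767 CPM in TH1 effector cells (641-fold higher), with 14.6 CPM in activated naive and 1.13 CPM in naive cells. The chemokine gene *Ccl5* averaged 44.3 CPM in reactivated TH1 and 3.83 CPM in TH1 effector cells (11.5-fold higher). Of 12 transcription factor genes, 5 rose and 4 fell at reactivation, near the 39.9% and 39.8% of all genes. *Eomes*, a T-box factor of cytotoxic lymphocytes, averaged 54.1 CPM in reactivated TH1 and 1.08 CPM in TH1 effector cells (49.9-fold higher). *Runx3*, which acts in the cytotoxic programme of CD8 cells, averaged 93.2 CPM in reactivated TH1 and 297 CPM in TH1 effector cells (3.18-fold lower), against 30.3 CPM in activated naive and 93.8 CPM in naive cells. *Tbx21*, encoding the TH1 factor T-bet, averaged 98.8 CPM in TH1 effector and 0.116 CPM in naive cells (822-fold higher).

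The genes with the most similar profile were found by the root mean square difference of centred log2 values over the 24 libraries, among 9609 genes with at least the required counts. The nearest were *Il21* for *Gzmb* (1.47), *Serpinb6b* for *Gzmc* (0.582), *Mpzl2* and *Il10* for *Nkg7* (0.773 and 0.812), *Vcl* for *Ctsw* (0.359), *Col27a1* for *Serpinb9* (0.706) and *Slc35f2* for *Srgn* (0.367), in log2 units. *Il10* averaged 108 CPM in reactivated TH1, 18.5 CPM in TH1 effector, 0.133 CPM in activated naive and 0 CPM in naive cells. For *Gzmk*, with *Gbe1* nearest at 0.644, the gene's own deviation from its mean was 0.880 in the same unit, so that likeness is weak.

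Markers of the labelled cell type were present throughout. The summed level of 6 CD4 T-cell markers was 2221 to 2673 CPM in reactivated TH1, 2382 to 2837 CPM in TH1 effector, 2513 to 2781 CPM in activated naive and 3481 to 3748 CPM in naive libraries. *Cd4* itself averaged 427 CPM in reactivated TH1, 459 CPM in TH1 effector, 132 CPM in activated naive and 926 CPM in naive cells, and was 7.02-fold lower in activated naive than in naive cells (edgeR, adjusted p = 5.38e-23). *Cd8a* and *Cd8b1* together gave 4.81 to 5.62 CPM in reactivated TH1, 4.21 to 6.42 CPM in TH1 effector, 4.66 to 7.50 CPM in activated naive and 23.2 to 30.8 CPM in naive libraries, and most of that sum was *Cd8b1*. *Cd8a* averaged 1.33 CPM in reactivated TH1, 0.369 CPM in TH1 effector, 0.279 CPM in activated naive and 0.840 CPM in naive cells, and was 3.84-fold higher in reactivated TH1 than in TH1 effector cells (edgeR, adjusted p = 4.34e-05). The part of CD8 T cells in the granule gene levels was not tested. A list of 10 markers of NK and innate lymphoid cells summed to 70.4 to 123 CPM in reactivated TH1, 34.5 to 60.1 CPM in TH1 effector, 0.973 to 5.34 CPM in activated naive and 4.28 to 6.38 CPM in naive libraries. Most of the rise from TH1 effector to reactivated TH1 cells was *Eomes*. That gene averaged 54.1 CPM in reactivated TH1 and 1.08 CPM in TH1 effector cells. Of the list's 5 tested genes 3 rose in reactivated TH1 against TH1 effector cells, where 39.9% of all genes rose. They were *Eomes*, *Klrc1* (2.95-fold) and *Fcer1g* (4.38-fold). *Klrc1* averaged 6.76 CPM in reactivated TH1 and 2.28 CPM in TH1 effector cells. *Fcer1g* was low, at 0.971 CPM in reactivated TH1 and 0.226 CPM in TH1 effector cells. *Klrd1* averaged 9.07 CPM in reactivated TH1 and 10.96 CPM in TH1 effector cells, and *Klrk1* 28.8 CPM in reactivated TH1 and 29.1 CPM in TH1 effector cells, and neither passed the test. Of the 5 not tested, *Tyrobp* averaged 0.348 CPM in reactivated TH1 and 0.0618 CPM in TH1 effector cells, *Klrb1c* averaged 0.0224 CPM in reactivated TH1 and 0.0226 CPM in TH1 effector cells, and *Ncr1*, *Klra4* and *Klra8* were at 0 in reactivated TH1 libraries. The list's part in the granule gene levels was not tested. Mast cell and basophil markers summed to 2.39 to 6.09 CPM in reactivated TH1, 1.77 to 9.17 CPM in TH1 effector, 0.276 to 0.699 CPM in activated naive and 0.376 to 1.23 CPM in naive libraries. B cell markers reached at most 1.25 CPM in reactivated TH1, 18.5 CPM in TH1 effector, 0.676 CPM in activated naive and 3.67 CPM in naive libraries. Neutrophil markers reached at most 2.21 CPM in reactivated TH1, 21.9 CPM in TH1 effector, where *Cxcr2* averaged 14.8 CPM, 0.392 CPM in activated naive and 0.295 CPM in naive libraries. The TH1 effector sum was nearly all *Cxcr2*: *S100a8* and *S100a9* were at 0 there, and *Mpo* and *Elane* averaged 0.0639 and 0.0101 CPM. Macrophage markers, 11 of 12 in the files, summed to 11.6 to 16.9 CPM in reactivated TH1, 3.09 to 4.61 CPM in TH1 effector, 9.99 to 12.01 CPM in activated naive and 7.49 to 11.2 CPM in naive libraries. *Cd68* made up most of the activated naive and naive sums, averaging 9.98 CPM in activated naive and 5.65 CPM in naive cells. It averaged 3.17 CPM in reactivated TH1 and 2.32 CPM in TH1 effector cells. *Lyz2* averaged 5.98 CPM in reactivated TH1 and 0.0697 CPM in TH1 effector cells. *C1qb* averaged 1.503 CPM in reactivated TH1 cells. It was at 0 in TH1 effector libraries, as were *Csf1r*, *C1qa*, *C1qc* and *Fcgr1*. Each of these was detected in reactivated TH1 cells, whose cultures held macrophages. Of 7 tested macrophage markers, 4 rose and 0 fell at reactivation, where 39.9% of all genes rose and 39.8% fell. *Srgn* and *Serpinb9* can also be made by macrophages, and the part of macrophage RNA in their levels was not tested.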

How the data were processed

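The members and lists were chosen with earlier results of these data known. RNA extracted with Trizol was made into TruSeq Stranded libraries, per the labels' protocols. The deposited values are whole-number counts of reads per gene symbol. The submitters' processing notes name STAR, HTSeq, DESeq2 and mm10; their versions, the annotation and the strand setting are not stated there. Lines that name no gene were left out of library sizes; reads in no feature averaged 15.6% of counted reads in reactivated TH1, 17.2% in TH1 effector, 22.8% in activated naive and 23.1% in naive libraries.

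From the counts, R 4.3.3 and edgeR 4.0.16 gave TMM factors, a filter on low counts by group (12584 of 23420 genes kept) and a robust quasi-likelihood test with group and sequencing run as terms over all 24 libraries. Runs were read from the flow cell names of the files, and each held 3 libraries of each group. Depth, 18457653 to 34262645 counts a library, limits genes near 0: 3 counts over the 6 libraries of a group were taken as the floor. Plotted values are log2(CPM + 2 counts at mean depth, that is 0.0754 CPM). DESeq2 1.42.0, other filters and scalings, the replicate number as a block, each run alone and each library left out were tried as alternatives. Exon lengths come from GENCODE M21 and promoters from RefSeq. The code was tested on simulated data. Named are the 8 genes and, from each list and comparison, up to the 2 largest changes in each direction among called genes that averaged at least 10 CPM in the higher group, plus the nearest genes by profile; that for *Prf1* is not reported here. *Zfp683*, *Adgre1* and *Ly6g* were not used here.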

Additional observations from a re-analysis of the deposited data

Results flagged for a closer look

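Single libraries stood apart from the other 5 of their group for 3 genes. Activated naive library 6 had 5.24 CPM of *Gzmb*, against 1.59 CPM in the next library. It had 0.343 CPM of *Gzmc* (7 counts), against 0.1399 CPM in the next (4 counts). Activated naive library 4 had 0.119 CPM of *Gzmk* (3 counts), against 0.0350 CPM in the next (1 count). TH1 effector library 1 had 0.90 CPM of *Gzmk* (31 counts), against 0.222 CPM in the next (5 counts). Among the 32 groups screened, chance alone marks about 1 in 20, a rate for continuous values that need not hold for so few counts.

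The response of TH1 cells at 6 hours differed from that of naive cells by edgeR's quasi-likelihood test of the difference itself. The differences in log2 fold change, TH1 minus naive, were 4.44 for *Serpinb9*, 4.21 for *Gzmc*, 4.18 for *Prf1*, 2.13 for *Nkg7*, 1.81 for *Ctsw*, -2.33 for *Srgn* and -4.47 for *Gzmb*. Within run 1 alone the difference for *Nkg7* had an adjusted p of 0.0634.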

How the results depend on the processing

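Over 36 alternative settings, 24 of them leaving out 1 library, 40 of the 49 pairs of a gene and a comparison kept their direction and their side of the threshold. Of 1756 values, 49 lost the threshold and 1 turned round: *Prf1* in reactivated TH1 against naive cells was -0.17 on the log2 scale within run 2 alone. A test against a 1.5-fold change called 6695 genes, and the test against no change 10686, in TH1 effector against naive cells, 5408 and 10032 in reactivated TH1 against TH1 effector, 5412 and 10045 in reactivated TH1 against activated naive cells, and 4436 and 8553 for the difference of responses; the first asks for larger changes by construction. That test also lost *Ctsw* in reactivated TH1 against TH1 effector and *Srgn* in reactivated TH1 against activated naive cells. Lost too were *Nkg7* in activated naive against naive cells and *Prf1* in reactivated TH1 against naive cells. *Serpinb9* was lost in TH1 effector against naive and against activated naive cells. Without libraries 5 and 6 of every group, chosen after seeing the data like the fit of *Gzmk* without TH1 effector library 1, 6 of the 7 genes were called in activated naive against naive and in TH1 effector against activated naive cells. Library numbers are shared between groups. Of 36 same-numbered pairs 35 correlated above 0.1 (median 0.221), and 1 was at 0.0790, below the 0.1 asked of every pair, so the number was used as a block in an alternative. With the number as a block, 7 genes were called in each comparison, and 10336 genes in activated naive against naive, 10746 in TH1 effector against naive, 10111 in reactivated TH1 against TH1 effector, 10118 in reactivated TH1 against activated naive, 10974 in TH1 effector against activated naive, 11099 in reactivated TH1 against naive and 8620 for the difference of responses. In 23 of 24 libraries the best correlation within the run was with the same number in all 3 other groups. Over single pairs of a library and another group this held in 71 of 72. It is a hint from the data that same-numbered libraries share something that the labels do not name. The main test and the SEs leave this pairing out. Depth limits *Gzmk* and the naive levels of *Gzmb*.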
